A study of Mus musculus with 9 samples.

Results

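The comparison of LPS-activated with unstimulated DCs covered 16260 genes, those of the 55471 genes in the deposited counts that passed edgeR's filter on low counts, in 6 of the 9 libraries of the study. The cells were grown with GM-CSF from the bone marrow of wild-type C57BL/6 mice, female per the study's methods. They were left unstimulated (3 libraries) or given LPS at 100 ng/mL, the dose of the study's methods (3 libraries), both for 6 h, and another 3 libraries, from DCs given IFN-β for 6 h, entered the same model. The libraries of each group carry the letters A, B and C. The labels do not say which mice or cultures the letters stand for, so the p-values measure the spread between these libraries, which may be technical. No term for the letters entered the main fit, and an alternative fit with them as a block is given at the end. GM-CSF cultures of bone marrow hold macrophage-like cells beside DCs, and in bulk RNA fewer cells of a type and less RNA per cell cannot be told apart.

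LPS, a lipid of the outer membrane of Gram-negative bacteria, is handed by CD14 to the receptor TLR4 and its partner MD-2 (encoded by *Ly96*). One arm of signalling, through the adaptor MyD88, activates the transcription factors NF-κB and AP-1, which drive inflammatory cytokines and chemokines. The other arm, through TRIF, activates IRF3 and the production of IFN-β, which acts back on the cells through the interferon receptor and STAT transcription factors and switches on antiviral genes. Activated DCs then mature, which means that they present antigen, carry costimulatory ligands for T cells and migrate towards lymph nodes.

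Total counts were 33425803 to 35877346 per unstimulated library and 36115384 to 41015280 per LPS library. Expression is given as CPM, counts scaled to a fixed library size after TMM scaling, which corrects for composition. The scaling factors were 1.18 to 1.26 in unstimulated and 0.783 to 0.841 in LPS-activated DCs, and scaling by library size alone lowered the median log2 fold change of all tested genes from -0.04 to -0.62. A change is therefore relative to that median, and wherever a gene group changed its balance of rises and falls under library-size scaling, those counts are given too. Replicate libraries of a group differed beyond counting noise in all pairs. Of 9 DC markers, 7 had at least 1 CPM in both groups, and their summed level was 2059 to 2281 CPM in unstimulated and 2784 to 2862 CPM in LPS-activated DCs. Of 8 macrophage markers, 7 had at least 1 CPM, with sums of 1897 to 2373 and 1833 to 2370 CPM. Markers of B cells summed to at most 1.69 CPM, of T or NK cells to at most 0.539 CPM and of mast cells or basophils to at most 11.1 CPM in any of these libraries, and those of eosinophils to at most 32.7 CPM. The sums of 4 further lists had higher means with LPS and rested mostly on 1 gene each. Neutrophil markers summed to 20.3 to 56.2 CPM without and 53.9 to 162.7 CPM with LPS (*Csf3r*, with 3 and then 4 of 9 markers at 1 CPM or more), and erythroid or megakaryocyte markers to 94.3 to 124.1 and 123.3 to 148.7 CPM (*Pf4*, 2 and 3 of 7). Stromal or endothelial markers summed to 12.8 to 16.3 and 126.5 to 134.0 CPM (*Kdr*, 4 and 5 of 7), and plasmacytoid DC markers to 39.0 to 47.9 and 211.8 to 258.5 CPM (*Tcf4*, 3 of 5 in both). Siglech, which defines plasmacytoid DCs, was at most 0.0253 CPM in unstimulated libraries and had no count with LPS. The part of these cells in the results was not tested.

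LPS changed 11084 of the 16260 genes (68.2%) at an adjusted p under 0.05. Of these, 5334 were higher (32.8%) and 5750 lower (35.4%), and under library-size scaling 2777 were higher and 9906 lower. The large changes ran mostly upwards: 2639 genes rose and 2790 fell at least 2-fold, 1144 and 948 at least 4-fold, 572 and 290 at least 8-fold, and 175 and 24 at least 32-fold. The 572 genes that rose at least 8-fold, which were chosen by this readout, held 1.19% ± 0.12 (SD, n = 3) of all counts in unstimulated and 15.2% ± 0.40 in LPS-activated DCs. The 290 genes that fell at least 8-fold went from 0.609% ± 0.022 to 0.0351% ± 0.0037 of the counts. The 10 genes with the most counts in each library took 13% ± 0.16 of the counts without and 11.6% ± 0.040 with LPS, with all 3 LPS libraries below all 3 unstimulated ones (p = 0.1 in a two-sided exact permutation test, the lowest possible with 3 against 3). The 100 genes with the most counts took 28.4% ± 0.42 of the counts without and 32.2% ± 0.24 with LPS, and all 3 LPS libraries were above all 3 unstimulated ones (p = 0.1 in the same exact test).

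**Figure D1:**
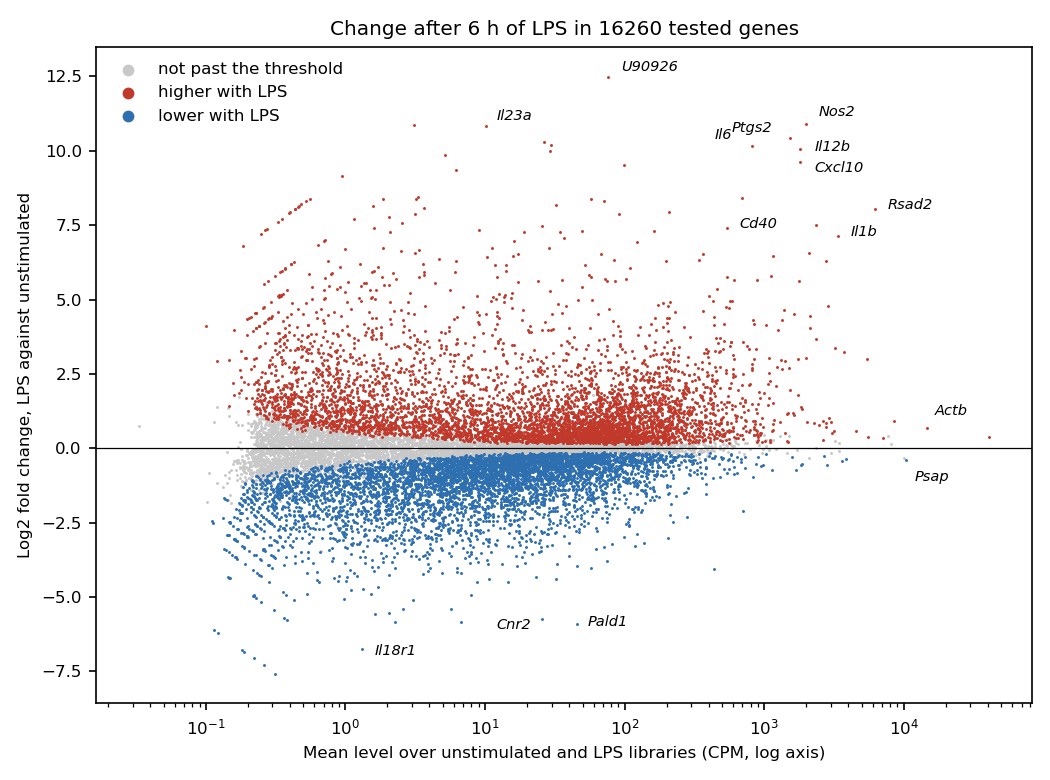
Log2 fold change of each of the 16260 tested genes (LPS against unstimulated, vertical axis) against its mean level over the 6 libraries (CPM, log axis). Red points were higher with LPS (5334 genes), blue points lower (5750) and grey points not past an adjusted p of 0.05. The largest changes point upwards, with rises of more than 10 on the log2 scale for *Il6*, *Nos2* and *Ptgs2*, and under library-size scaling the whole cloud sits 0.58 lower.

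The largest rises among genes with at least 10 CPM included *Il23a*, *Il10*, *Il12b* and *Il12a*, which encode cytokine chains, beside *U90926* and *Clic5*, which do not. *U90926* went from 1 count in each unstimulated library to 189, 142 and 128 CPM, a ratio of 6481 (95% interval 2217 to 31431, counting error only). *Il23a*, the p19 chain that makes IL-23 with the p40 chain, had 1, 0 and 0 counts in unstimulated libraries and 448, 818 and 695 with LPS, a ratio of 2645 (95% interval 474 to 104520). *Il10*, an anti-inflammatory cytokine, went from 0, 1 and 0 counts to 431, 209 and 314, a ratio of 1287 (95% interval 230 to 50874). None of these 3 genes was near its LPS level in any unstimulated library. *Il12b*, the p40 chain shared by IL-12 and IL-23, measured 3.67, 3.93 and 2.62 CPM and then 3459, 3822 and 3564 CPM (log2 fold change 10.05 ± 0.21 SE, adjusted p = 5.26e-10), and *Il12a*, the p35 chain of IL-12, rose from 0.076, 0.0674 and 0.0226 to 58.0, 61.5 and 57.2 CPM (log2 fold change 9.99). *Clic5*, of the chloride intracellular channel family, rose from at most 0.076 CPM to 79.8, 49.4 and 28.8 CPM (log2 fold change 10.28, or 10.98 without unstimulated A and 9.69 without unstimulated B). All 3 chains of IL-12 and IL-23 thus rose, and in each the LPS libraries lay far above the unstimulated ones. The genes of this paragraph were picked as the largest rises of this comparison, so the separation of their libraries is no further result.

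Among genes with at least 10 CPM, *Pald1*, which encodes the phosphatase-domain protein paladin, dropped from 79.2, 92.8 and 96.7 CPM to 1.10, 1.19 and 2.12 CPM (log2 fold change -5.92 ± 0.28, 60.5-fold lower). *Cnr2*, the cannabinoid receptor of immune cells, went from 56.0, 48.6 and 46.5 to 0.814, 1.05 and 0.952 CPM (53.2-fold lower), and the kinase gene *Aatk* from 14.6, 12.7 and 12.6 to 0.106, 0.350 and 0.215 CPM (56.9-fold lower). In all 3 genes every LPS library was far below every unstimulated library, which is no further result, since they were picked as the largest falls. *Il1rl1*, which encodes the IL-33 receptor ST2, fell 22.6-fold. The glycosyltransferase genes *B3gnt7* and *Galnt9* had log2 fold changes of -4.49 and -4.32, the metallopeptidase gene *Amz1* -4.38, *Ankrd63* -5.40 and *Tmem273* -4.20.

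The parts of the LPS receptor moved in different directions. *Tlr4* was 141, 142 and 138 CPM in unstimulated and 95.9, 71.8 and 105 CPM in LPS-activated DCs (log2 fold change -0.63 ± 0.12, adjusted p = 0.000832). *Cd14*, the coreceptor, rose from 79.0, 71.6 and 76.9 to 733, 704 and 662 CPM (log2 fold change 3.21 ± 0.09, adjusted p = 1.75e-09), and *Ly96* rose by 1.44 on the log2 scale. The groups did not overlap for any of these genes. With 68.2% of all tested genes called, such separation of 3 against 3 libraries, here, above and below, does not by itself set a gene apart. Of 35 tested genes of LPS sensing and TLR signalling, 23 rose and 8 fell (median log2 fold change 0.89), and under library-size scaling 17 rose and 11 fell. Without the LPS library C the number that fell was 5. Among the other receptors, *Tlr3*, a sensor of double-stranded RNA, rose 15.4-fold (log2 fold change 3.94 ± 0.25), *Tlr1* rose by 2.88 and *Tlr7*, a sensor of single-stranded RNA, by 2.25. *Tlr5*, the flagellin receptor, had few counts and was 13.1-fold lower with LPS (95% interval 4.25 to 65.5, counting error only). *Irak1*, the kinase that acts below MyD88, fell from 75.3, 72.0 and 77.1 to 36.6, 39.6 and 38.1 CPM (log2 fold change -0.97 ± 0.06), while *Myd88* itself rose by 1.36, *Irak3*, an inhibitory relative of *Irak1*, by 1.58 and the TRIF-arm kinase gene *Ikbke* by 1.68.

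NF-κB genes rose almost throughout: 22 of 25 tested genes rose and 1 fell (median 1.24), and 18 rose and 5 fell under library-size scaling. Nfkbiz, which encodes the atypical inhibitor IκBζ needed for part of the late NF-κB genes, went from 16.8, 15.1 and 16.9 to 342, 298 and 246 CPM (log2 fold change 4.18 ± 0.15, adjusted p = 5.35e-09). *Tnfaip3*, which encodes the deubiquitinating feedback inhibitor A20, went from 122, 122 and 127 to 1240, 1047 and 948 CPM (log2 fold change 3.13 ± 0.11). The subunit genes rose as well, by 2.46 for *Nfkb2*, 2.13 for *Nfkb1*, 1.95 for *Rel*, 1.12 for *Relb* and 1.06 for *Rela* on the log2 scale, and the inhibitor genes *Nfkbib* and *Nfkbia* by 2.65 and 2.33. *Map3k14*, the kinase of the noncanonical pathway, was the member that fell (log2 fold change -0.62 ± 0.07). Genes named here and in the following paragraphs that are neither among the largest of their list nor otherwise covered by the naming rules were chosen after their values were seen.

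AP-1 and other early response factors had 9 of 24 higher and 9 lower (37.5% each, near the 32.8% and 35.4% over all genes, and 7 and 14 under library-size scaling). *Batf2* and *Batf*, which pair with *Jun* proteins, rose by 3.20 ± 0.19 and 2.21 ± 0.17, and *Atf3*, a repressor of cytokine genes, by 1.69. The immediate early genes *Egr3*, *Fos* and *Jun* had log2 fold changes of -2.54, -2.29 and -1.50 at 6 h. *Myc*, a growth factor-driven transcription factor, fell from 33.7, 37.2 and 43.9 to 3.61, 4.66 and 4.76 CPM (log2 fold change -3.13 ± 0.17, adjusted p = 6.24e-08). Of the 12 phosphatase genes that switch off MAP kinases, 8 rose and 4 fell (7 and 4 under library-size scaling). *Dusp2* rose from 0.938, 0.853 and 0.745 to 10.9, 8.54 and 6.97 CPM (log2 fold change 3.38 ± 0.23), *Dusp14* by 4.91 from 0.101, 0 and 0.0902 CPM (4.32 without unstimulated B), and *Dusp1* by 1.76. *Dusp3* fell from 203, 187 and 177 to 43.0, 52.5 and 47.1 CPM (log2 fold change -1.99 ± 0.09). Among 28 regulators of mRNA decay, 17 rose and 6 fell, a balance that turned to 7 and 16 under library-size scaling. *Zc3h12a*, which encodes the cytokine mRNA-degrading nuclease regnase-1, rose by 2.55 ± 0.11 and *Zfp36*, which encodes the AU-rich element binder tristetraprolin, by 2.08 ± 0.21, whereas its relative *Zfp36l2* fell (-1.43 ± 0.18).

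**Figure D2:**
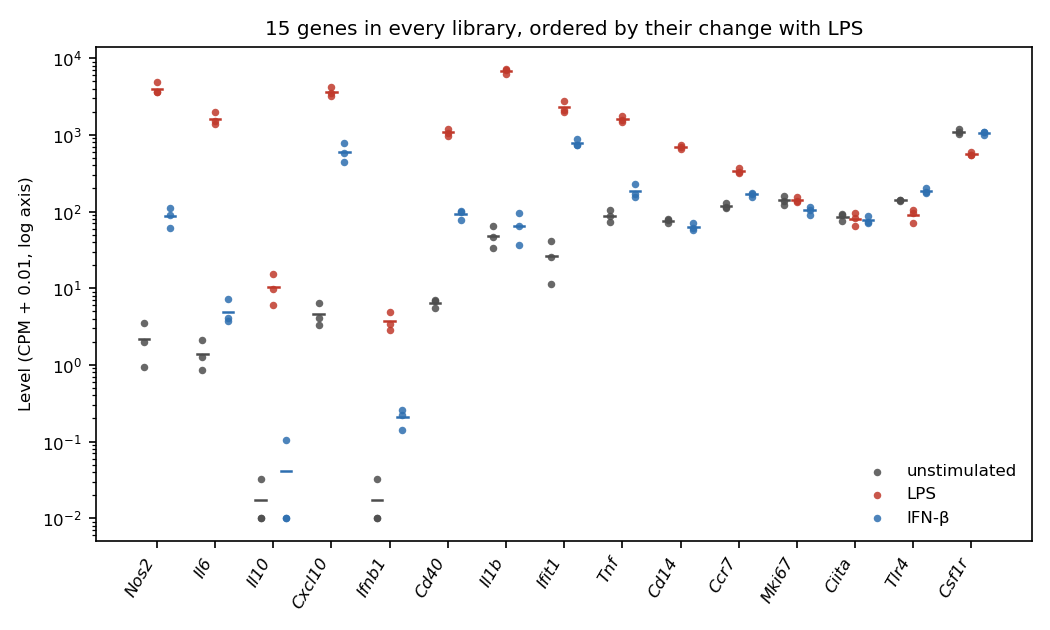
Level of 15 genes in each of the 9 libraries (CPM + 0.01, log axis), ordered from the largest rise with LPS on the left to the largest fall on the right. Points are libraries, coloured by group, and bars are group means (n = 3). Unstimulated and LPS points are separated for *Cd40*, *Il6*, *Cxcl10* and *Cd14* and overlap for *Ciita* and *Mki67*. *Tlr4* and *Csf1r* lie lower with LPS, and *Mki67* is lower with LPS only under library-size scaling.

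Cytokine genes had 31 of 43 tested members higher and 7 lower (median 3.19, against -0.04 over all tested genes), and 30 higher and 10 lower under library-size scaling. *Il6* measured 0.836, 1.26 and 2.08 CPM in unstimulated and 1508, 1384 and 1993 CPM in LPS-activated DCs (log2 fold change 10.18 ± 0.38, adjusted p = 7.29e-09). *Il1b*, the inflammasome-processed form of IL-1, measured 33.1, 47.0 and 63.9 CPM and then 6158, 7118 and 6988 CPM (log2 fold change 7.14 ± 0.39). *Tnf* measured 73.3, 87.0 and 105 CPM and then 1554, 1745 and 1478 CPM (log2 fold change 4.17 ± 0.18). For each of these 3 inflammatory cytokines the lowest LPS library lay far above the highest unstimulated one. Further rises were 7.87 for *Il27* (the p28 chain of IL-27) and 2.11 for its partner chain *Ebi3*, 6.29 for *Il1a*, 5.21 for *Csf3* (G-CSF), 3.88 for *Lif*, 3.29 for *Il15*, which supports NK and memory T cells, and 3.03 for *Il1rn*, the IL-1 receptor antagonist. *Csf2*, which encodes GM-CSF, had no count in any unstimulated library and was at least 39.6-fold higher with LPS (floor of 3 counts over the group). *Ifnb1*, which encodes IFN-β itself, had 1 count in the 3 unstimulated libraries together and 4.85, 3.41 and 2.86 CPM with LPS, a ratio of 468 (95% interval 83.4 to 18538). *Il16*, a CD4 ligand, went the other way, from 15.9, 12.6 and 15 to 1.17, 1.43 and 1.26 CPM (log2 fold change -3.49 ± 0.13). The TNF-family ligand genes were divided: *Tnfsf10* (TRAIL), *Tnfsf15* and *Tnfsf4* (OX40 ligand) rose by 5.62, 4.96 and 2.79, and *Tnfsf14* (LIGHT), *Tnfsf12* (TWEAK), *Tnfsf13* (APRIL) and *Tnfsf13b* (BAFF) had log2 fold changes of -3.23, -1.92, -1.61 and -0.85.

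Chemokine genes had 22 of 25 tested members higher and 2 lower (median 3.34), and 17 higher and 3 lower under library-size scaling. The ligands of CXCR3, which attract activated T cells and NK cells, rose most. *Cxcl10* measured 6.44, 3.30 and 4.08 CPM and then 4163, 3162 and 3524 CPM (log2 fold change 9.62 ± 0.34, adjusted p = 5.35e-09). *Cxcl11* measured 0.127, 0.0225 and 0 CPM and then 77.5, 47.2 and 53.3 CPM (log2 fold change 10.21 ± 0.47, or 11.98 without unstimulated A and 9.62 without unstimulated C), and *Cxcl9* rose by 8.37. The LPS libraries were above all unstimulated libraries for the 3 CXCR3 ligands. Neutrophil-attracting *Cxcl1*, *Cxcl5*, *Cxcl2* and *Cxcl3* rose by 7.30, 6.17, 5.66 and 4.65, and the CC chemokine genes *Ccl5*, *Ccl3* and *Ccl4* by 5.63, 4.03 and 3.34. *Cxcl14* and *Ccl6* were the members that fell (log2 fold changes -0.83 ± 0.27 and -0.42). For *Cxcl14* the call was lost without unstimulated B (-0.71, adjusted p = 0.0659) or LPS A (-0.65, adjusted p = 0.067), and the number of chemokines that fell was then 1.

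Of 12 chemokine receptor genes, 5 rose (41.7%) and 4 fell (33.3%), near the shares over all genes (32.8% and 35.4%). Under library-size scaling 5 rose and 6 fell. *Ccr7*, the receptor that guides mature DCs to lymph nodes, measured 130, 112 and 115 CPM and then 330, 317 and 368 CPM (log2 fold change 1.51 ± 0.09, adjusted p = 1.02e-07). *Ccrl2*, a nonsignalling receptor that binds chemerin, rose 27.3-fold (4.77 ± 0.19) and *Cxcr5* rose 7.81-fold from at most 0.203 CPM. *Cxcr4*, which holds cells in the bone marrow, fell from 37.4, 29.4 and 24.6 to 4.39, 5.39 and 3.32 CPM (log2 fold change -2.80 ± 0.23). *Cxcr2*, *Ccr2* and *Cx3cr1*, receptors of circulating myeloid cells, had log2 fold changes of -3.31, -1.87 and -1.53. *Ccr7* rose while the receptors that serve marrow and blood fell, and the unstimulated and LPS libraries did not overlap for *Ccr7* or *Cxcr4*.

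Interferon-responsive genes rose as a body. Of 44 antiviral effectors, 41 rose and 1 fell (median 2.69), and 41 rose and 2 fell under library-size scaling. *Rsad2*, which encodes the antiviral enzyme viperin, measured 79.4, 41.4 and 20.4 CPM and then 14198, 10835 and 12362 CPM (log2 fold change 8.05 ± 0.50, or 8.65 without unstimulated A). *Ifit1bl1* measured 9.10, 2.02 and 1.26 CPM and then 1907, 1169 and 1099 CPM (8.42 ± 0.69, or 9.72 without unstimulated A). *Ifit1*, which binds foreign RNA, measured 40.7, 25.9 and 11.2 CPM and then 2767, 1962 and 2137 CPM (6.47 ± 0.43). Every LPS library was far above every unstimulated one, but the unstimulated libraries themselves were spread, with A highest and C lowest. The summed level of the antiviral list showed the same order, 4862, 4015 and 2738 CPM in unstimulated A, B and C, against 58592, 46993 and 48622 CPM with LPS. *Isg15*, a ubiquitin-like modifier, rose by 5.35 ± 0.42, *Mx1*, a GTPase that traps viral particles, by 4.32 ± 0.13, and the RNA sensor genes *Ifih1* (MDA5) and *Ddx58* (RIG-I) by 4.32 and 2.73.

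All 19 tested guanylate-binding proteins and immunity-related GTPases, which attack the compartments of intracellular bacteria and parasites, rose with LPS under both scalings (median 4.08), and 0 fell at an unadjusted p under 0.05 in edgeR and by DESeq2. *Iigp1* measured 2.94, 1.84 and 0.361 CPM and then 521, 370 and 362 CPM (7.95 ± 0.48, or 8.55 without unstimulated A). *Gbp5*, which helps assemble inflammasomes, measured 45.8, 38.6 and 36.8 CPM and then 2531, 2058 and 2045 CPM (5.77 ± 0.16, adjusted p = 1.35e-09). *Gbp10* had no count without LPS and was at least 80.5-fold higher with it (floor of 3 counts over the group). The smallest rise of the list was that of *Gbp8* (1.31). Summed over the list, levels were 702, 557 and 411 CPM in unstimulated A, B and C and 12203, 9725 and 9471 CPM in the LPS libraries.

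Among 31 genes of the IRF, STAT and SOCS families and their receptors, 23 rose and 4 fell (median 0.92), and 17 rose and 9 fell under library-size scaling. *Irf7*, the interferon-amplifying factor, measured 228, 161 and 33.3 CPM and then 1658, 1452 and 1160 CPM (log2 fold change 3.34 ± 0.53, adjusted p = 0.000207). Unstimulated C was again the lowest. *Socs3* and *Socs1*, feedback inhibitors of cytokine receptors, rose by 3.70 ± 0.16 and 2.76, and *Stat5a* and *Stat2* by 2.68 and 2.48. *Irf1* and *Irf8* rose by 2.40 and 1.92, while *Irf3* had a log2 fold change of -0.14 that did not pass the threshold. *Ifngr1*, the ligand-binding chain of the IFN-γ receptor, fell from 86.9, 69.3 and 75.9 to 30.5, 27.6 and 25.2 CPM (-1.48 ± 0.11).

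The libraries of DCs given IFN-β show how much of this was also reached without LPS, at the dose of IFN-β that the study used and after 6 h. Tested directly against them, 3795 of the 16260 genes were higher with LPS (23.3%) and 4194 lower (25.8%), with 1996 higher and 7024 lower under library-size scaling. Of the 41 antiviral effectors that LPS raised, 23 were higher with LPS than with IFN-β and for 18 no difference was called. The GTPases had 9 members higher with LPS, 9 with no difference called and 1 lower (*Gbp8*). Among all 5334 genes that LPS raised, 3296 were higher with LPS than with IFN-β, 119 were lower and 1919 had no difference called. Of all 44 tested antiviral genes, 18 were above and 2 below IFN-β under library-size scaling, and of the 19 GTPases 4 and 2. *Rsad2* had a mean of 3504 CPM with IFN-β and was 1.83 higher with LPS on the log2 scale. *Iigp1* had a mean of 244 CPM, with a difference of 0.77. A gene without a called difference is not shown to be equal under both stimuli.

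For cytokines and chemokines the IFN-β levels lay much lower. Of the 31 cytokine genes that LPS raised, 30 were also above their IFN-β level, and of the 22 chemokines 16, and over all tested members of both lists the numbers above IFN-β were 29 and 14 under library-size scaling. *Il12b* averaged 4.28 CPM with IFN-β, which makes the LPS libraries 9.72 higher on the log2 scale, and *Il6* averaged 4.96 CPM (difference 8.36). *Il1b* averaged 65.5 CPM (difference 6.69) and *Tnf* 185 CPM (difference 3.11). *Cxcl10* responded to both, with 602 CPM on average under IFN-β and 2.59 more with LPS. *Cxcl9*, at a mean of 65.5 CPM with IFN-β and 115 CPM with LPS, had a difference of 0.81 that did not pass the threshold (adjusted p = 0.065). *Cd14* stood at 62.9 CPM with IFN-β and was 3.48 higher with LPS.

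**Figure D3:**
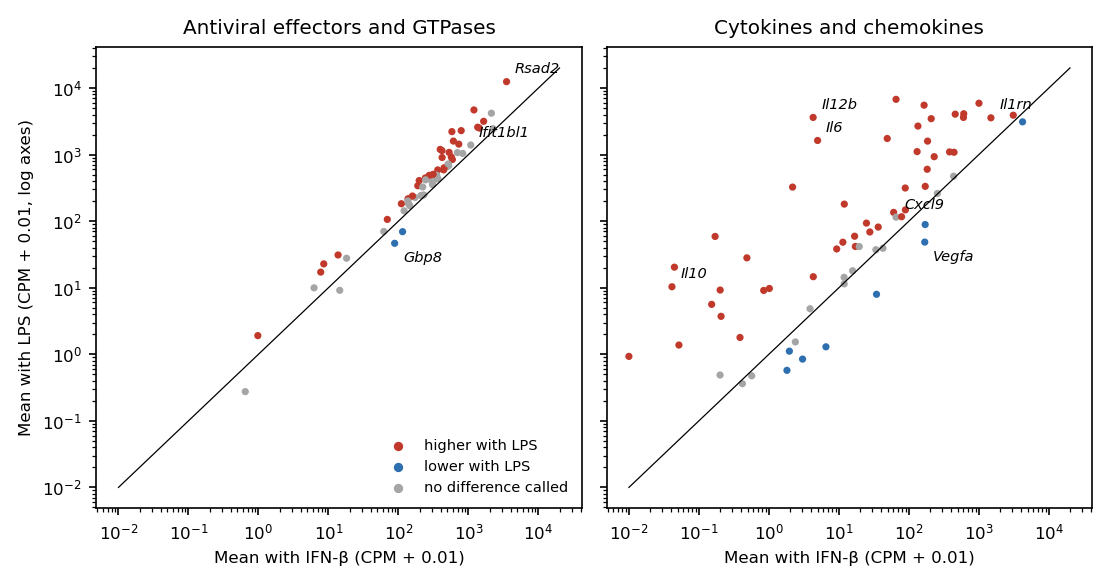
Mean level with LPS (vertical axis) against mean level with IFN-β (horizontal axis), both in CPM + 0.01 on log axes, n = 3 libraries each. The left panel shows the 44 tested antiviral effectors and 19 GTPases and the right panel the 43 cytokines and 25 chemokines. Red and blue points were higher and lower with LPS than with IFN-β in the direct test and grey points had no difference called. Of the antiviral genes, 23 were higher with LPS (median log2 difference over the list 0.61), and *Il12b*, *Il6* and *Il10* lie far above it. Under library-size scaling fewer genes are higher with LPS (18 antiviral, 4 GTPase, 29 cytokine and 14 chemokine genes).

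Promoter sequences are shown for genes from the groups that moved most, chosen after their values were seen, so that the letters near their starts can be read beside the values. The sequences are the 250 bases before the annotated start, 5′ to 3′ on the strand of the gene, from RefSeq on GRCm38.p6. Capitals mark matches, on either strand, to the κB consensus bound by NF-κB or to the half-pair GAAANNGAA of the interferon-stimulated response element (ISRE), bound by IRF and STAT proteins. The windows lie at chr5:30012864-30013113 (*Il6*, plus strand), chr12:55492648-55492897 (*Nfkbia*, minus), chr5:92348890-92349139 (*Cxcl10*, minus), chr12:26456453-26456702 (*Rsad2*, minus), chr4:156200819-156201068 (*Isg15*, minus), chr3:142496684-142496933 (*Gbp5*, plus) and chr11:44399813-44400062 (*Il12b*, plus).
Il6: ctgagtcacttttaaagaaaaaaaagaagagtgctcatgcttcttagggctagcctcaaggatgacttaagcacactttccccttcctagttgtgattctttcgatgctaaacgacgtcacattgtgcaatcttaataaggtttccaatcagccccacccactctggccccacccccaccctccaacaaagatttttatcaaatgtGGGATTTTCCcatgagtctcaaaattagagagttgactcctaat
Nfkbia: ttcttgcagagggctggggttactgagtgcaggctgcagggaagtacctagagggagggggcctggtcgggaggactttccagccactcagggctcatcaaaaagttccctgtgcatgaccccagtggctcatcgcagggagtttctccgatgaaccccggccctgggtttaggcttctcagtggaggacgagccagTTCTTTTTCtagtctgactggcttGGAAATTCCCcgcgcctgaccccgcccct
Cxcl10: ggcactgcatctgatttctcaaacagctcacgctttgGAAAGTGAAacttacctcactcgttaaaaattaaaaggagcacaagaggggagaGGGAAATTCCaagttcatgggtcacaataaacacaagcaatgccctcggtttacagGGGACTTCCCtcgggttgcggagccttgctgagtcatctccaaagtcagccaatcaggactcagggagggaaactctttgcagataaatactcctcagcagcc
Rsad2: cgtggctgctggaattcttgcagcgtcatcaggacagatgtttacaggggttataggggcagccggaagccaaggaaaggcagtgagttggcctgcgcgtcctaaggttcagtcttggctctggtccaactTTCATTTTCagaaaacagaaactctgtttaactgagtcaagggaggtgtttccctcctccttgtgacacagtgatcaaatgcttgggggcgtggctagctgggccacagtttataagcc
Isg15: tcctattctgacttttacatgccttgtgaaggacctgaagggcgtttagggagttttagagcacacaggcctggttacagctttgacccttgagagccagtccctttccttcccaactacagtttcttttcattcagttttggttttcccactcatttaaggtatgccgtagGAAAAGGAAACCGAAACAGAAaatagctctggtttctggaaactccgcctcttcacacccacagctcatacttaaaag
Gbp5: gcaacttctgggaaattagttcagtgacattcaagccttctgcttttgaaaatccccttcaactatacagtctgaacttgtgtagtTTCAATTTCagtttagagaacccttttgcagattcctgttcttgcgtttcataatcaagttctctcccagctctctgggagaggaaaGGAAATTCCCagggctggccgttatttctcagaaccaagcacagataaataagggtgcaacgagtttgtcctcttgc
Il12b: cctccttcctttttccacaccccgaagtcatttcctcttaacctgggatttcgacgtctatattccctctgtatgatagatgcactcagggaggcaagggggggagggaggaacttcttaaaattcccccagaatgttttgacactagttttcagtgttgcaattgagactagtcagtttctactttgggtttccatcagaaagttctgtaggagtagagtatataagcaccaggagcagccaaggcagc

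*Il6* holds 1 κB match 44 to 35 bases before its start and *Nfkbia* 1 at 29 to 20, with an ISRE half-pair at 53 to 45. *Cxcl10* holds κB matches at 159 to 150 and 103 to 94 and a half-pair at 213 to 205. *Gbp5* holds both kinds, at 77 to 68 and at 164 to 156. In *Rsad2* the half-pair lies at 119 to 111, and in *Isg15* 3 overlapping half-pairs run from 78 to 58 bases before the start. *Il12b*, one of the largest rises, has no match to either in these 250 bases, which says only that these letters are absent from this window.

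A second set is shown for genes of cholesterol synthesis and of DNA replication, which fell. Capitals mark the sterol regulatory element SRE-1 (TCACNCCAC), bound by the SREBP factors, in *Hmgcs1* (chr13:119690101-119690350, plus strand), and the E2F letters TTTGGCGC or TTTCCCGC in *Mcm5* (chr8:75109259-75109508, plus) and *Mcm6* (chr1:128359706-128359955, minus).
Hmgcs1: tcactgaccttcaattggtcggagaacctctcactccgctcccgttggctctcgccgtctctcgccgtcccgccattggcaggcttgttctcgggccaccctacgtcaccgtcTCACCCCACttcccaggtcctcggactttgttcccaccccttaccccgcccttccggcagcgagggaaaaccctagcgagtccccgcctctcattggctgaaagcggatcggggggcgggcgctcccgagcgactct
Mcm5: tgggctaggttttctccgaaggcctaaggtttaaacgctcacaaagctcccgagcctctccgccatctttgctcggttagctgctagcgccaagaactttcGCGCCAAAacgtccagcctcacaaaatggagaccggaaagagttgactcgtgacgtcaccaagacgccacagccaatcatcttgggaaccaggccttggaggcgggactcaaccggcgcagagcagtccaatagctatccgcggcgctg
Mcm6: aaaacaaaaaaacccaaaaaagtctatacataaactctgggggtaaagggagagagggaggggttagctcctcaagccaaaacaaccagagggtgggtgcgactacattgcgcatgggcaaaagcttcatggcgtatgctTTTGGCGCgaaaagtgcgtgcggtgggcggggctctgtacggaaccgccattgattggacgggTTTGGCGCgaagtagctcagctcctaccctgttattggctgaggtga

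*Hmgcs1* holds the SRE-1 match 137 to 129 bases before its start, and was the only 1 of 19 cholesterol synthesis promoters with these letters (5.26%), while E2F letters stood in 10 of 29 DNA replication promoters (34.5%). *Mcm5* holds 1 E2F match at 149 to 142, and *Mcm6* holds 2, at 110 to 103 and 47 to 40. *Hmgcs1*, which makes the precursor of mevalonate, had a log2 fold change of -0.96, and the replicative helicase genes *Mcm5* and *Mcm6* had -1.48 and -0.43.

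Counted over windows from 250 bases before to 50 after the start, 10633 of the 16260 tested genes had a promoter in RefSeq. ISRE half-pairs were found in 77 of 357 promoters of genes that rose at least 8-fold (21.6%), in 7 of 186 of genes that fell at least 8-fold (3.76%) and in 804 of all 10633 (7.56%). The κB consensus was found in 32 (8.96%), 5 (2.69%) and 551 (5.18%). Both together occurred in 7 of the 357, in 0 of the 186 and in 46 of all. The AP-1 letters TGANTCA occurred in 16%, 10.2% and 5.39% of the 3 sets, the C/EBP letters TTGCNNAA in 15.7%, 11.3% and 8.71%, and TATAAA on the sense strand in 12%, 5.38% and 4.73%. CCAAT occurred in 30.3%, 45.2% and 38.9% and the E-box CACGTG in 6.16%, 12.4% and 10.0%. The remaining motifs were rare in all sets: 4.48%, 3.76% and 3.52% for the PU.1 letters GAGGAAGT, 1.12%, 1.61% and 3.15% for the CRE letters TGACGTCA, 1.12%, 1.61% and 3.01% for E2F and 1.40%, 0.538% and 1.03% for SRE-1. By gene group, half-pairs stood in 10 of 11 GTPase promoters (90.9%) and 19 of 33 antiviral promoters (57.6%), and κB letters in 5 of 17 chemokine (29.4%) and 7 of 30 cytokine promoters (23.3%). These shares are descriptions of letters, without a test, and the sets were chosen by the readout.

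**Figure D4:**
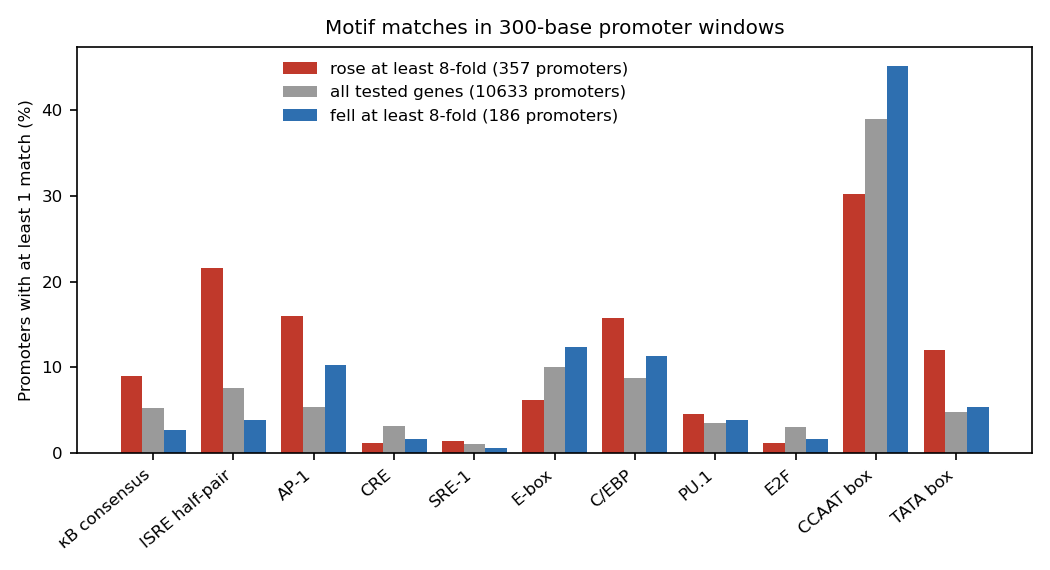
Share of promoters (percent, from 0) that hold at least 1 match to each of 11 motifs in a 300-base window around the start. Red bars are genes that rose at least 8-fold with LPS (357 promoters), grey bars all tested genes (10633) and blue bars genes that fell at least 8-fold (186), with no error shown because each bar is a count of sequences. ISRE half-pairs reach 21.6% in the rising set against 7.56% over all, and CCAAT is highest in the falling set (45.2%).

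Of 24 genes of MHC class I presentation, 21 rose and 0 fell (median 1.73), also 0 at an unadjusted p under 0.05 in edgeR and by DESeq2, against 20 and 3 under library-size scaling. *Nlrc5*, the transactivator of class I genes, measured 128, 127 and 94.0 CPM and then 813, 800 and 726 CPM (log2 fold change 2.74 ± 0.12), and the nonclassical class I gene H2-T22 rose by 2.82 ± 0.19. The peptide transporter gene *Tap1* rose by 2.56 and the immunoproteasome genes *Psmb9*, *Psmb10* and *Psmb8* by 2.15, 2.06 and 1.27. The class II list had 8 higher (38.1%) and 7 lower (33.3%) of 21, near the shares over all genes (32.8% and 35.4%), and 2 and 12 under library-size scaling. Its transactivator *Ciita* overlapped between the groups, at 88.8, 74.8 and 92.4 and then 63.9, 81.4 and 95.5 CPM (-0.09 ± 0.14, adjusted p = 0.601, and -0.66 with adjusted p = 0.00201 under library-size scaling). *H2-DMa*, a chain of the chaperone that loads peptides on class II, fell from 198, 180 and 188 to 88.2, 86.7 and 88.7 CPM (-1.10 ± 0.08), while *Rfx5*, a class II promoter factor, rose by 0.96 ± 0.08 and *H2-Eb2* by 1.49 ± 0.31. Class I genes share stretches of near-identical sequence, so values of single H2-Q and H2-T genes are uncertain.

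Of 21 costimulatory and coinhibitory ligands, 17 rose and 3 fell (median 2.05), with 16 and 4 under library-size scaling. *Cd40*, through which T cells license DCs, measured 7.02, 6.78 and 5.44 CPM and then 1195, 1070 and 967 CPM (log2 fold change 7.39 ± 0.17, adjusted p = 7.17e-10). *Cd86* and *Cd80*, the ligands of CD28, rose by 2.75 and 2.28, *Cd274*, which encodes the inhibitory ligand PD-L1, by 2.67, and *Cd70* by 4.39 ± 0.21 from at most 0.158 CPM. In contrast to *Cd274*, *Vsir*, which encodes the inhibitory ligand VISTA, fell from 216, 163 and 147 to 24, 24.6 and 17.6 CPM (-2.99 ± 0.18), and *Cd276* (B7-H3) fell by 1.51.

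Maturation and migration genes were higher in 19 and lower in 1 of 25 cases (15 and 7 under library-size scaling). *Itgb8*, the integrin chain that with the αv chain activates TGF-β, measured 0.355, 0.786 and 0.451 CPM and then 48.5, 62.6 and 59.0 CPM (6.72 ± 0.23). *Cst7*, which encodes the protease inhibitor cystatin F, rose by 4.23 ± 0.33 and *Fscn1*, an actin bundler of mature DCs, by 2.44, whereas the protease gene *Adam8* fell (-0.70 ± 0.08). The 30 integrins and adhesion genes had 16 higher and 6 lower members, or 11 and 15 under library-size scaling. *Vcam1* rose by 4.52, *Itga9* by 5.92 ± 0.37 and *Itga5* by 2.41, and *Itga6*, a laminin receptor chain, fell (-1.42 ± 0.09).

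Receptors for uptake moved in both directions. Of 28 C-type lectin and scavenger receptors, 9 rose and 14 fell (median -0.39, and 7 and 19 under library-size scaling). *Clec4e*, which encodes Mincle, a sensor of mycobacterial glycolipid, measured 89.8, 100 and 141 CPM and then 1379, 1109 and 1425 CPM (3.56 ± 0.21), and the scavenger receptor gene *Marco* rose by 3.30. *Clec10a*, a galactose-binding lectin, fell from 11.9, 12.5 and 17.0 to 1.59, 2.01 and 1.38 CPM (-3.05 ± 0.24), *Clec4b1* fell by 1.97 ± 0.09, and the mannose receptor gene *Mrc1* by 1.33. The Fc and complement list had 9 members higher (36%) and 8 lower (32%) of 25, near the shares over all genes (32.8% and 35.4%). Under library-size scaling 6 were higher and 16 lower, and without LPS B 5 were lower. *Fcgr4* rose by 3.15 ± 0.26, *Serping1*, the C1 inhibitor, by 2.93 ± 0.47 (4.03 without unstimulated C) and *Cfb* by 2.58. *C5ar2*, the second receptor of the fragment C5a, fell from 9.45, 6.60 and 6.95 to 0.495, 0.408 and 0.492 CPM (-4.04 ± 0.23).

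Enzymes that make small mediators showed some of the largest changes of the data. Of 26 genes of arginine, nitric oxide, itaconate and prostaglandin metabolism, 13 rose and 8 fell (12 and 12 under library-size scaling). *Ptgs2*, the inducible cyclooxygenase of prostaglandin synthesis, measured 2.74, 2.25 and 1.78 CPM and then 2991, 3328 and 2913 CPM (log2 fold change 10.42 ± 0.21, adjusted p = 5.18e-10). *Ptgs1*, its constitutive counterpart, fell from 108, 129 and 150 to 11.1, 12.8 and 15 CPM (-3.31 ± 0.21). The prostaglandin E synthase gene *Ptges* rose by 3.46, while *Alox5*, *Lta4h* and *Alox5ap* of leukotriene synthesis had log2 fold changes of -2.66, -1.75 and -1.24. The inducible and the constitutive cyclooxygenase gene thus moved in opposite directions, with no overlap of the groups for either. *Hdc*, which makes histamine, rose by 8.33, *Acod1*, which makes itaconate, by 4.79, and *Arg2* by 2.41, and *Arg1* fell by 1.17.

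Cholesterol synthesis fell nearly as a whole: of 26 genes, 23 fell and 0 rose (median -1.42), also 0 at an unadjusted p under 0.05 in edgeR and by DESeq2, and 25 fell under library-size scaling. With the replicate block 2 rose, and 1 rose without unstimulated A, LPS B or IFN-β A. *Dhcr7*, the last enzyme of one branch, fell from 42.4, 32.7 and 30.1 to 4.03, 2.80 and 2.55 CPM (-3.50 ± 0.19, adjusted p = 7.75e-08), and *Sqle*, which oxidises squalene, from 85.2, 66.3 and 74.2 to 14.0, 11 and 11.5 CPM (-2.63 ± 0.17). Of the 23 genes that fell, 16 were also below their IFN-β level, as were 3617 of all 5750 genes that fell with LPS. In the list of cholesterol efflux and LXR targets, 5 of 17 rose (29.4%) and 6 fell (35.3%). These shares were near those over all genes (32.8% and 35.4%), and under library-size scaling 3 rose and 11 fell. *Ch25h*, which makes the antiviral oxysterol 25-hydroxycholesterol, measured 1.04, 2.34 and 2.62 CPM and then 293, 220 and 222 CPM (6.92 ± 0.34), *Nr1h3*, which encodes LXRα, rose by 1.91, and *Soat1*, which esterifies cholesterol, fell by 1.54 ± 0.10 and *Rxra* by 1.17 ± 0.10.

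Lysosomal genes had 10 members higher and 19 lower of 42 (median -0.24, and 3 and 32 under library-size scaling). *Tfeb*, the factor that drives lysosomal genes, fell from 43.0, 40.2 and 34.5 to 10.3, 15 and 11.6 CPM (-1.67 ± 0.13), *Atp6v0d2*, a proton pump subunit, fell by 1.49 ± 0.08, and *Ctsc*, a cathepsin that activates granule proteases, rose by 1.47 ± 0.17. Among 72 nuclear genes of the respiratory chain, 6 rose and 31 fell (median -0.15), or 1 and 69 under library-size scaling, and DESeq2 called 10 higher. *Cycs*, which encodes cytochrome c, rose from 43.2, 46.2 and 41.8 to 129, 122 and 111 CPM (1.46 ± 0.08), and the complex I genes *Ndufs7* and *Ndufb10* fell by 0.97 ± 0.09 and 0.84 ± 0.11. The 10 tested genes on the list of the mitochondrial genome shifted together, between 0.42 and 0.64, with 6 called higher. Without LPS C 3 were called higher, and under library-size scaling 0 in either direction. By gene class, the 5 tested mitochondrial tRNA genes had a median of 0.17 (1 higher) and the 2 tested mitochondrial rRNA genes 1.43 (0 called). All genes of the mitochondrial genome together held 0.871% ± 0.089 of all counts without and 0.835% ± 0.19 with LPS (exact permutation test, two-sided, p = 0.9).

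Of 28 genes of the NRF2 and metal response, 16 rose and 5 fell (8 with the replicate block, and 11 and 11 under library-size scaling). *Fth1*, the ferritin heavy chain, rose from 5782, 5613 and 6232 to 11152, 11138 and 11276 CPM (0.93 ± 0.12), *Hamp*, the iron hormone hepcidin, by 4.03 ± 0.28 from at most 0.180 CPM, and *Slc40a1*, the iron exporter that hepcidin blocks, by 1.97. *Tfrc*, which takes up transferrin iron, fell from 23.1, 30.3 and 36.9 to 11.1, 9.96 and 15.7 CPM (-1.30 ± 0.20). The groups did not overlap for *Fth1* or *Tfrc*. Other iron genes of the list did not move as one, with *Ftl1*, the ferritin light chain, lower (-0.56 ± 0.12), the importer gene *Slc39a14* higher (0.95 ± 0.12) and *Slc11a1* at -0.13 (adjusted p = 0.167). *Mt2*, a metallothionein, rose by 3.03 ± 0.49 (3.65 without unstimulated C), and *Slc7a11*, the cystine transporter, by 2.09. Hypoxia-response genes went down in 14 and up in 6 of 23 cases (17 and 4 under library-size scaling), with *Ankrd37* and *Epas1* lower (-2.03 ± 0.46 and -1.60 ± 0.35), *Hif1a* higher by 1.26 and the vasodilator gene *Adm* by 3.16 ± 0.34. The unfolded protein response had 5 genes higher (9 with the replicate block) and 8 lower of 26, and 3 and 20 under library-size scaling. *Eif2ak3*, the stress kinase PERK, fell from 42.4, 38.8 and 39.6 to 11.9, 13.6 and 15 CPM (-1.57 ± 0.09), *Herpud1* fell by 1.30 ± 0.17, and *Ppp1r15a*, which reverses the action of PERK, rose by 1.39 ± 0.12.

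Genes of cell division fell. Of 32 mitosis genes, 29 fell and 1 rose (median -2.30), and of 36 DNA replication genes, 31 fell and 2 rose (median -1.16), with 31 and 1 and with 34 and 1 under library-size scaling. *Cenpf*, a kinetochore protein, fell from 13.3, 14.4 and 12.4 to 1.17, 1.02 and 0.922 CPM (-3.69 ± 0.12, adjusted p = 3.38e-09) and the cytokinesis gene *Anln* from 15.9, 20.2 and 21.3 to 2.09, 2.36 and 2.49 CPM (-3.04 ± 0.15). Among replication genes, *Ung*, which removes uracil from DNA, fell by 3.55 ± 0.16 and *Tk1*, thymidine kinase, by 3.01 ± 0.16. *Mki67*, the usual marker of proliferating cells, did not follow them, with 123, 137 and 161 and then 139, 133 and 157 CPM (0.03 ± 0.11, adjusted p = 0.848), and was lower with library-size scaling (-0.56, adjusted p = 0.0019). *Tpx2*, a spindle factor, and *Rfc3*, a clamp loader subunit, rose by 0.99 ± 0.10 and 1.10 ± 0.11. Ribosome biogenesis followed the same direction, with 36 of 48 genes lower and 4 higher (median -0.85, and 44 and 2 under library-size scaling). *Dkc1*, the pseudouridine synthase dyskerin, fell from 13.1, 15.2 and 19.0 to 1.91, 1.92 and 1.81 CPM (-3.07 ± 0.19), the polymerase I subunit gene *Polr1b* fell by 2.44 ± 0.17, and *Rcl1* rose from 9.55, 11 and 11.8 to 62.7, 66.7 and 61.0 CPM (2.55 ± 0.11).

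The ribosomal proteins themselves had 8 of 65 genes higher and 8 lower (median 0.02), and 2 and 61 under library-size scaling. The number higher was 5 without unstimulated B and 13 with DESeq2, and upper-quartile scaling gave 4 and 19. Against IFN-β, 53 were higher with LPS and 0 lower, also 0 at an unadjusted p under 0.05 in edgeR and by DESeq2, but 3 and 2 under library-size scaling. *Rpl24* (1.16 ± 0.24) and *Rpl13a* (-0.73 ± 0.12) have many processed copies in the genome, so their values are uncertain. Of 31 proteasome genes, 25 rose and 0 fell (also 0 at an unadjusted p under 0.05 in edgeR and by DESeq2, median 0.39, with 7 and 18 under library-size scaling), led by the core subunits *Psma5* and *Psma6*, which rose from 62.5, 62.0 and 57.9 to 186, 179 and 174 CPM (1.56 ± 0.07) and from 99.5, 106 and 111 to 296, 292 and 303 CPM (1.49 ± 0.08).

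Cell death genes had 21 of 34 members higher and 8 lower (17 and 14 under library-size scaling). *Casp4*, which encodes caspase-11, the sensor of LPS in the cytosol, measured 16.3, 14.4 and 12.9 CPM and then 280, 219 and 236 CPM (log2 fold change 4.08 ± 0.13, adjusted p = 2.74e-09). *Cflar*, which encodes the caspase-8 inhibitor c-FLIP, measured 163, 155 and 155 CPM and then 1737, 1469 and 1535 CPM (3.32 ± 0.10). *Mlkl*, the executor of necroptosis, rose by 2.96, *Casp1* by 2.56, *Nlrp3* by 2.27 and the pore-forming *Gsdmd* by 1.27, while the necroptosis kinase gene *Ripk3* fell by 0.99. *Nlrp1b*, another inflammasome sensor, fell from 36.7, 38.3 and 35.5 to 5.70, 4.52 and 5.68 CPM (-2.80 ± 0.11), and the proapoptotic *Bmf* and the antiapoptotic *Bcl2* fell by 2.38 and 1.84. Genes that promote and genes that inhibit cell death stood among both the rises and the falls.

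Myeloid transcription factors had 17 of 35 members higher and 11 lower (12 and 17 under library-size scaling). *Gfi1*, a transcriptional repressor needed for granulocyte development, rose by 4.18 ± 0.28 from at most 0.269 CPM, and *Maf* measured 41.1, 24.5 and 11.8 CPM and then 262, 188 and 178 CPM (3.02 ± 0.44). *Pparg*, a lipid-sensing nuclear receptor, fell from 18.7, 14.6 and 12.7 to 2.76, 3.15 and 2.95 CPM (-2.37 ± 0.21), and so did *Cebpa* (-2.30). Growth factor and cytokine receptors had 20 of 40 higher and 13 lower, or 15 and 21 under library-size scaling. *Il15ra*, which presents IL-15 to neighbouring cells, rose by 3.78 ± 0.13, *Il2ra* by 2.57 and *Pdgfrb* by 5.02 ± 0.29. *Il18r1*, a chain of the IL-18 receptor, was 1.29, 2.87 and 3.68 CPM without LPS and had counts only in LPS library C with it (0.0614 CPM), a ratio of 127 lower (95% interval 34.8 to 1051). *Il1r1*, *Tgfbr2* and *Il6ra* had log2 fold changes of -2.57, -1.66 and -1.65, and *Csf1r*, the receptor of the macrophage growth factor, went from 1198, 1026 and 1081 to 589, 546 and 551 CPM (-0.97 ± 0.08).

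Of 48 chromatin modifiers, 26 rose and 12 fell (11 and 27 under library-size scaling). The class IIa deacetylase genes *Hdac5* and *Hdac4* fell, *Hdac5* from 48.3, 46.9 and 43.1 to 6.19, 7.63 and 5.93 CPM (-2.81 ± 0.11) and *Hdac4* by 2.01. *Setdb2*, a methyltransferase, rose from 19.7, 19.8 and 16.4 to 125, 96.9 and 99.5 CPM (2.52 ± 0.12), *Tet1* by 2.55 ± 0.41 (3.31 without unstimulated C), *Tet2* by 1.81 and the H3K27 demethylase gene *Kdm6b* by 1.79. Clock genes were lower in 9 and higher in 2 of 16 cases (13 and 0 under library-size scaling). The output factor genes *Dbp* and *Tef* fell by 2.49 ± 0.32 and 1.54 ± 0.08, and *Nr1d2* rose from 12, 10.6 and 14.2 to 20.3, 17.2 and 23.3 CPM (0.73 ± 0.16), a call that library-size scaling removed (0.14, adjusted p = 0.421). Of 20 long noncoding RNAs, 10 fell and 5 rose (15 and 3 under library-size scaling), the falls including hosts of small nucleolar RNAs such as *Snhg17* (-1.71 ± 0.21) and *Snhg12* (-1.58). *Mir155hg*, the host of miR-155, rose by 4.28 and the noncoding *Ptgs2os2* by 5.19 ± 0.16. The strand setting of the counting is not given in the sources used here, so an antisense RNA such as *Kcnq1ot1* (-1.64 ± 0.13) cannot be told apart from its overlapping partner.

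Of 12 genes that are commonly used as references, 5 rose (41.7%) and 4 fell (33.3%), shares near those over all genes (32.8% and 35.4%), with 3 and 8 under library-size scaling. *B2m* rose by 0.91 ± 0.15 and *Actb* by 0.70 ± 0.11 (0.11 and no call under library-size scaling) and *Gusb* fell from 310, 288 and 296 to 152, 150 and 145 CPM. Among the genes with the most counts, *Rnf213*, an interferon-responsive ubiquitin ligase, went from 1577, 1283 and 784 to 9884, 9638 and 9672 CPM (8.01-fold). *Psap* and *Lyz2*, abundant products of phagocytes, had log2 fold changes of -0.39 ± 0.12 (adjusted p = 0.0167, and 0.0519 without unstimulated A or 0.0581 without LPS C) and -0.34 ± 0.15 (adjusted p = 0.0626, or 0.00115 with the replicate block, 0.0452 without unstimulated C and 0.0215 without LPS A). *Mmp12*, a macrophage elastase, had 0.16 ± 0.10 (adjusted p = 0.203), which library-size scaling turned to -0.42. *Gm26917*, a noncoding gene at the ribosomal RNA locus, had 0.38 ± 0.13 (adjusted p = 0.0228, and 0.0777 without unstimulated B or 0.0645 without LPS B) and -0.20 under library-size scaling.

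**Figure D5:**
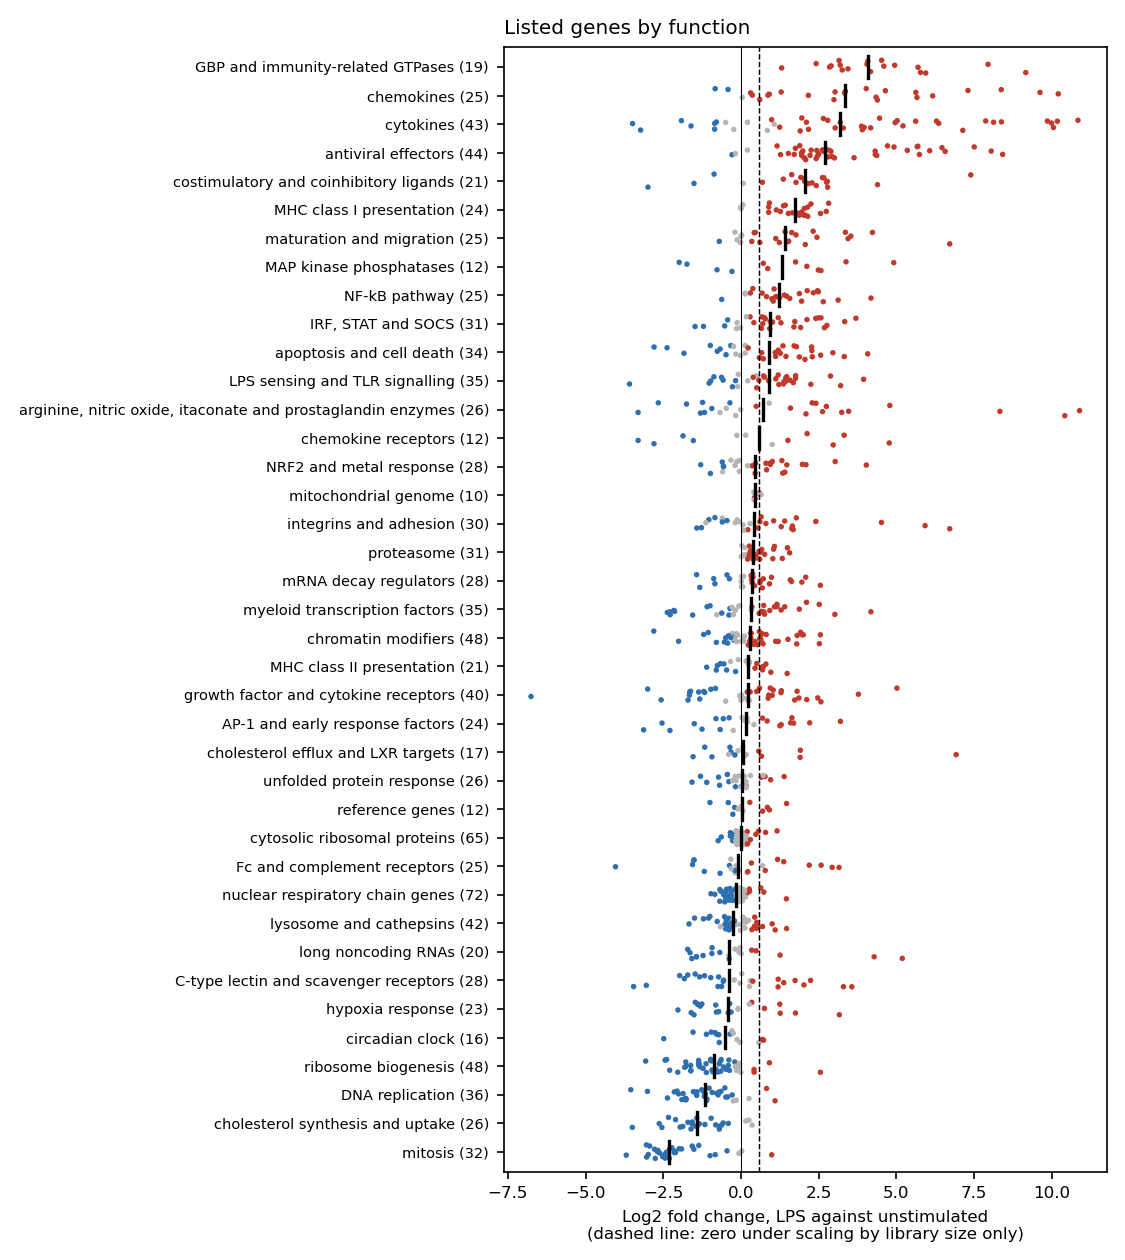
Log2 fold change (LPS against unstimulated) of the tested members of 39 gene lists, ordered by median, with the number of tested members in brackets. Points are genes, red where higher, blue where lower and grey where not past an adjusted p of 0.05, and black bars are medians. The dashed line marks where zero would lie under scaling by library size only, so points between the lines change sign with the scaling. GTPases (median 4.08), chemokines (3.34) and cytokines (3.19) stand at the top and mitosis genes (-2.30) and cholesterol synthesis (-1.42) at the bottom under both scalings.

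Some genes were detected in one group alone, with at most 3 counts in every library of the other. By this rule, which uses the readout, 38 genes were present only with LPS at 1 CPM or more in each library, 24 of them protein coding, and 4 only without LPS. The 5 with the highest level under LPS were *U90926*, *Il12a*, *Clic5*, *Il23a* and the pseudogene *BC023105*, and the 4 found only without LPS were *Shcbp1l*, *Il18r1*, *Gm13415* and *Dclk3*. At 0.5 CPM the numbers were 73 and 23, and with library-size CPM 32 and 7.

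Many of the strongest rises lay near each other on the chromosomes. Of 569 genes with coordinates in GENCODE M21 on GRCm38 that rose at least 8-fold, 274 (48.2%) lay within 100 kb of another such gene, in 91 groups. Of the 290 genes that fell at least 8-fold it was 85 (29.3%), and of the 569 with the largest falls 216 (38%). These shares were not tested. The largest group spanned chr1:173468485-174054752 with 16 genes, among them *Ifi204*, *Ifi205* and *Mndal* of the cytosolic DNA-sensor family, and all 17 tested genes in the span were higher with LPS. Next came 10 genes at chr19:11403948-11584357, including *Ms4a4c*, *Ms4a6b* and *Ms4a6c* of the membrane-spanning Ms4a family, 8 at chr1:84990638-85342086, 8 at chr19:34473778-34650009, where *Ch25h* lies beside the Ifit genes, and 7 at chr11:48861968-49135387, which include *Irgm1*, *Tgtp1* and *Ifi47*. Some members of these clusters are similar copies of one another, so values of such single genes are uncertain.

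Protein-coding genes that rose at least 8-fold were 404 in number and had a median span of 19.6 kb and a median of 7 exons, against 23.7 kb and 9 exons over all 12429 tested protein-coding genes. The 218 protein-coding genes that fell at least 8-fold had 22.4 kb and 7 exons. The rising genes had a median level of 0.775 CPM without and 23.5 CPM with LPS, where all protein-coding genes had 19.4 and 17.3 CPM. By class, 33.3% of protein-coding genes were higher and 40.3% lower, and among 473 long intergenic noncoding RNAs 33.4% were higher and 27.9% lower. Of 66 unprocessed pseudogenes, 32 were higher and 11 lower, and of 597 processed pseudogenes 166 and 70, classes whose reads can come from their parent genes.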

How the data were processed

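RNA of 9 libraries (3 unstimulated, 3 LPS, 3 IFN-β, all at 6 h) was sequenced after removal of ribosomal RNA. The counts deposited by the authors are whole reads per gene in each library and were not normalized. Per the submitters' processing notes, reads were trimmed with Trim Galore 0.6.0 and mapped to the mouse genome (mm10) with STAR 2.7.8a, and the methods name gene counting by STAR. The strand setting is not given in the sources used here.

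Groups were taken from the treatment labels. One edgeR 4.0.16 model (R 4.3.3, limma 3.58.1) with 1 term per condition was fitted to all 9 libraries, with TMM factors, filterByExpr and quasi-likelihood F-tests. P-values were adjusted by the Benjamini-Hochberg method over the 16260 tested genes, with a threshold of 0.05. CPM was computed from the deposited counts and TMM-scaled library sizes. The standard error is the absolute log2 fold change divided by the square root of F. Rows without a gene symbol (3214) kept their identifiers. On simulated counts for this comparison (15747 genes), 69.1% of 97 genes changed 2-fold and 96.9% of 96 genes changed 4-fold were recovered, and 8.57% of calls fell on unchanged genes. Intervals and floors (95%, 3 counts) cover counting error only, since the reads carry no molecular identifiers.

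The 39 gene lists (1188 genes, 1135 tested), the markers and the members were chosen with earlier results of these data known. Named were 16 anchor genes, in each list the largest changes with at least 1 CPM (a pair in the main direction and 1 in the other), the 10 largest rises and falls with at least 10 CPM, the 5 genes with the most counts per group and the cell type markers. A few of these genes are not reported here. Coordinates are from GENCODE M21 (GRCm38), in which 55230 identifiers had an entry, and promoters from RefSeq (GRCm38.p6, first listed window of each gene). Libraries with the same letter deviated together from their group means (correlations over genes of 0.12 to 0.47 in all 9 pairs), so the letters were taken to pair the libraries. The labels do not say what they mark, and they entered as a replicate block only in an alternative fit, not in the main one. The other alternatives were library-size scaling, upper-quartile factors, no filter, a minimum of 10 counts in each library, a fit of the 6 libraries alone, DESeq2 1.42.0 and leaving out each library.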

Additional observations from a re-analysis of the deposited data

How the results depend on the processing

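With scaling by library size only, 2777 genes were higher and 9906 lower with LPS than without (21.9% of called genes higher, against 48.1%), and 1996 were higher and 7024 lower than with IFN-β. Among named genes this scaling reversed the sign of *Mki67* (-0.56), *mt-Co1* (-0.0077), *Gm26917* (-0.20) and *Mmp12* (-0.42). Counting only changes of at least 2-fold left 5429 genes, 2639 higher and 2790 lower. With the replicate block, LPS changed 11950 genes (5759 higher, 6191 lower) and differed from IFN-β in 9425 (4495 higher, 4930 lower). Of 1135 listed genes, the replicate block gained 73 calls and lost 0, and 0 changed direction. It changed no other call of a named gene than that of *Lyz2* (-0.34, adjusted p = 0.00115). DESeq2 called 10872 genes (5508 higher, 5364 lower). Leaving out each library in turn gave 10455 to 11234 changed genes. Genes found in 1 group alone numbered 73 and 23 at 0.5 CPM and 32 and 7 with library-size CPM. Genes under about 3 counts per library cannot be told from absent at this depth.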
